A study of Mus musculus with 10 samples.

Results

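The baseline expression of WT MLL-AF9 leukaemia was described from 3 expression arrays of 10 in the series. MLL-AF9 is a fusion of a histone methyltransferase gene with a partner from a transcription elongation complex, and it drives an aggressive acute myeloid leukaemia. All arrays came from bone marrow of C57B/6 mice with this disease, which started when 100000 cells of replated leukaemic colonies were injected after irradiation with 600 cGy. Every group, WT included, received pIpC 2 to 3 weeks after transplantation to switch on Cre, and cells were sorted on scatter, exclusion of propidium iodide, GFP (the MLL-AF9 retrovirus) and YFP (Cre activity). The WT arrays, given as 3 biological replicates by the series' design text, thus came from cells that had also seen the virus, pIpC and Cre. The other 7 arrays came from leukaemia lacking Ezh2 (4) or Eed (3), genes of the catalytic subunit and of a core subunit of PRC2, a Polycomb complex that methylates histone H3. The colonies and donors behind each array are not stated in the labels. All 20564 genes with a symbol were ranked by their mean level in the WT arrays, and no contrast of genotypes was made.

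Acute myeloid leukaemia is a block in the path from stem and progenitor cells to granulocytes and monocytes. Neutrophils fill their granules in order: myeloperoxidase and serine proteases enter the primary granules in promyelocytes, lactoferrin and other proteins enter the secondary granules in later precursors, and receptors for chemoattractants appear last. MLL fusions are known to hold Hoxa genes and their partner Meis1 active, which keeps progenitors in a self-renewing state.

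Levels are log2 intensities after the authors' RMA, and each gene is represented by its brightest probe set. A gene was called high when its mean lay in the top 10% of all genes, at 10.50 or above, which held 2057 genes. It was called at background when its mean did not exceed 7.01, the 95th percentile of 80 odorant, vomeronasal and taste receptor genes, and 8617 genes (41.9%) were there. The 9890 genes in between (48.1%) were called middle, and high and middle genes together (11947) made up 58.1%. Every count of list members below is to be read beside these shares of all genes, 10% high and 58.1% above background. Brightness also depends on how well a probe set binds its target, so these classes are coarse and the levels of different genes are not amounts of RNA set against each other. In a bulk sample, fewer cells of a type and less RNA per cell cannot be told apart. With 3 arrays, their number limits the precision of each mean.

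WT replicate 3 stood apart from WT replicates 1 and 2 in many genes. Pearson's r across the 20564 genes, which are not independent replicates, was 0.978 for replicates 1 and 2, 0.974 for 1 and 3 and 0.959 for 2 and 3. For these pairs, 784, 1056 and 1880 genes differed by more than 1 log2 unit, and 45, 170 and 276 by more than 2. Replicates 2 and 3 thus differed most from each other. Among the 274 genes above background whose WT values spanned more than 2 log2 units, replicate 3 was farthest from the middle value in 197 (71.9%), replicate 2 in 67 and replicate 1 in 10. Counts of list members lowest or highest in an array are given below without the same share over all genes. They cannot tell a trait of a list from a tendency of the whole array. Array medians, which RMA brings together, were nearly equal, at 7.42, 7.46 and 7.43 in WT replicates 1, 2 and 3. They were 7.41 to 7.45 over the Ezh2-null arrays and 7.41 to 7.48 over the Eed-null arrays. The labelled genotype was read from the targeted genes. Ezh2 read 10.25, 9.35 and 10.44 in WT, against 8.91 to 9.36 in Ezh2-null arrays, so the value of WT replicate 2 fell inside the range of the arrays without Ezh2. Eed read 10.52, 10.20 and 10.65 in WT, against 8.34 to 8.69 in Eed-null arrays. Where these probe sets lie relative to the deleted exons is not known here.

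The label of a myeloid leukaemia was checked against 9 defining markers, namely Ptprc, Itgam, Spi1, Mpo, Elane, Lyz2, Csf1r, Csf3r and Cebpa. All were above background in every WT array, as were 50.9% of all genes. Passing this bound thus cannot by itself settle the lineage. Ptprc, the pan-leukocyte phosphatase CD45, read 11.90, 11.96 and 11.50 in WT replicates 1, 2 and 3. Itgam, the CD11b integrin chain of myeloid cells, read 9.31, 9.12 and 8.53. Cd33, a sialic acid receptor of myeloid cells, was even across the arrays at 12.34, 12.16 and 12.28.

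**Figure D1:**
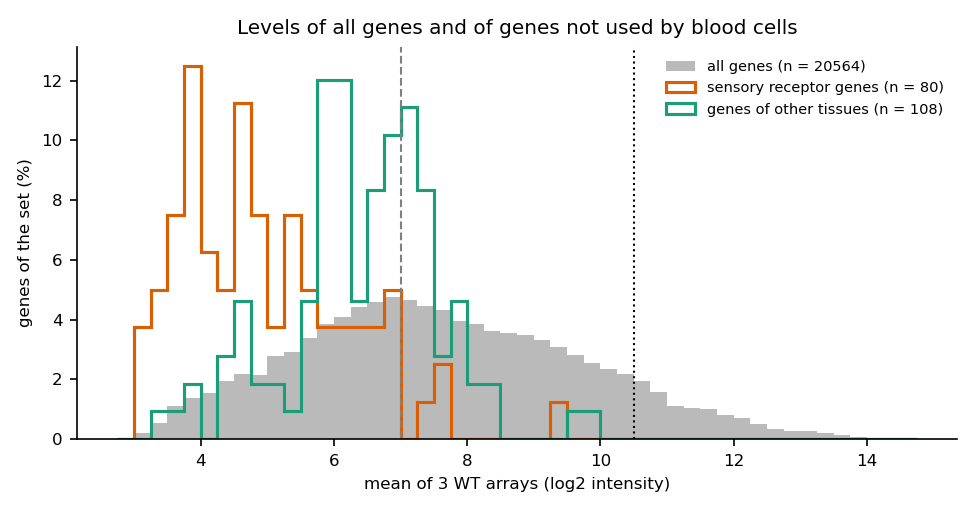
Share of genes (vertical axis, percent of each set) by mean level over the 3 WT arrays (horizontal axis, log2 intensity) for all 20564 genes (grey), 80 sensory receptor genes (orange) and 108 genes of other tissues (green). The dashed line at 7.01 is the background bound and the dotted line at 10.50 the bound of the top 10%; nearly all receptor genes sit left of the dashed line, while genes of other tissues reach 9.87.

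The bound rests on the receptor genes, which had a median of 4.71 against 7.45 for all genes. Just above it lay Scrn1 and Pdzk1 and just below it D3Ertd258e and Rbm19, all with means near 7.01. At the bound of the top 10%, Slc35a3 and Map3k7 lay just inside, and Alas1 and Sgpp1 just outside, all near 10.50. By construction 4 receptor genes exceeded the background bound, the highest being the sweet and umami taste receptor gene Tas1r3 at 9.36. A second check set of 108 genes of liver, muscle, brain, epidermis, eye, testis, pancreas, lung, gut and kidney had a median of 6.51. Of these, 35 (32.4%) exceeded the bound and 0 were high. The brightest were Prm1, a sperm protamine, at 9.87 and Mbp, myelin basic protein, at 9.56, with 1 of 3 and 2 of 8 probe sets above background. Middle levels near the bound were thus also found for genes of tissues that were not sampled.

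Granule protein genes were among the brightest of the leukaemia. Against 10% of all genes high and 58.1% above background, all 10 measured primary granule genes were above background and 8 were high. Of 15 secondary and tertiary granule genes 14 were high and 1 middle. Igsf6, a surface gene of myeloid cells that the primary list holds although it is no granule protein, read 13.30, 13.29 and 12.82. Mpo, the myeloperoxidase that makes hypochlorous acid, read 13.32, 12.87 and 12.58 in WT replicates 1, 2 and 3. Elane, neutrophil elastase, read 12.30, 12.18 and 12.31, and Ctsg, the serine protease cathepsin G, read 12.51, 12.06 and 12.98. Each of the 3 spanned less than 1 log2 unit, with Mpo lowest in replicate 3 and the others lowest in replicate 2. Prtn3, which encodes proteinase 3, read 11.24, 11.24 and 11.52. The middle members of the primary list were the protease activator Ctsc (10.13, 10.30 and 9.56) and Cst7, a cystatin that inhibits such proteases, which read 7.36, 5.63 and 9.99 and was at background in replicate 2.

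The upstream DNA of 4 primary granule genes and of the late neutrophil gene S100a8 is shown because these genes were high together. Rpsa, a ribosomal protein gene that was also high, is shown as a contrast in base composition. Each run is the 250 bases before the listed start, 5′ to 3′ on the gene's strand, from RefSeq on GRCm38.p6. In the first 5, capitals mark GAGGAA, a core bound by ETS factors such as PU.1, or its reverse complement TTCCTC. They also mark TATAAA, the letters of a TATA box, or its reverse complement TTTATA, wherever these lie in the run. In Rpsa, capitals mark CG dinucleotides. The positions are chr11:87793534-87793783 (+) for Mpo, chr10:79886062-79886311 (+) for Elane, chr10:79879417-79879666 (+) for Prtn3, chr14:56102575-56102824 (-) for Ctsg, chr3:90668821-90669070 (+) for S100a8 and chr9:120127516-120127765 (+) for Rpsa.
Mpo: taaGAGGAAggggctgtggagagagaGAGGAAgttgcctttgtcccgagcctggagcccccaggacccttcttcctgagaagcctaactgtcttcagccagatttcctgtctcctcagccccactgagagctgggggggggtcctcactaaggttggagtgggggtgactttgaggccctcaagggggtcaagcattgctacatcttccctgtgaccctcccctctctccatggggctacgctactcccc
Elane: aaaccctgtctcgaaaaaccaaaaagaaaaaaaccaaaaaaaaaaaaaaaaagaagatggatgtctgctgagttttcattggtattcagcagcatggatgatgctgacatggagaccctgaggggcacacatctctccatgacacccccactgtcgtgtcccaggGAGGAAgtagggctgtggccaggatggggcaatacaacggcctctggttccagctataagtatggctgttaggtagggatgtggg
Prtn3: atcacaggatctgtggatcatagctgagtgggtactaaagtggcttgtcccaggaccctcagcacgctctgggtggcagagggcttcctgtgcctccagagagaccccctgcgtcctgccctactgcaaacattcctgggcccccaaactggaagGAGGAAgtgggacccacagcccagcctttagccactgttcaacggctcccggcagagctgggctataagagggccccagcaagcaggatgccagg
Ctsg: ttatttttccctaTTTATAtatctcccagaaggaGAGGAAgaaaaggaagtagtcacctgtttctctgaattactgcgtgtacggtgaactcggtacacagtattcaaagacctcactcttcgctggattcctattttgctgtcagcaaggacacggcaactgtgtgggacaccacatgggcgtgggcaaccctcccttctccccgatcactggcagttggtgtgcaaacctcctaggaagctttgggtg
S100a8: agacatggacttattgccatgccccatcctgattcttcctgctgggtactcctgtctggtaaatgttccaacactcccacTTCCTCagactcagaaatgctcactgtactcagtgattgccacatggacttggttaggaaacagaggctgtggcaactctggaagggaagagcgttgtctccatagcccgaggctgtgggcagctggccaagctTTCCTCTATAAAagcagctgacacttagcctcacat
Rpsa: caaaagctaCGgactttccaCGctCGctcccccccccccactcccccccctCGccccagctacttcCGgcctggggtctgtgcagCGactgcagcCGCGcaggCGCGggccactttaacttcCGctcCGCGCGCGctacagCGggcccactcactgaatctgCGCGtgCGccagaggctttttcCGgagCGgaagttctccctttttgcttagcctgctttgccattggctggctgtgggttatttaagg

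The Elane and Prtn3 runs each hold 1 GAGGAA, ending 79 and 89 bases before the start. Neither holds TATAAA, though both hold the near match TATAAG. The Ctsg run holds TTTATA ending 231 bases before the start and GAGGAA ending 210 bases before it. In the Mpo run both matches lie far upstream, the nearer ending 218 bases before the start. S100a8 holds TATAAA ending 24 bases before the start, directly beside a TTCCTC, and a further TTCCTC farther upstream. The Rpsa run holds 21 CG dinucleotides against 2 to 7 in the others, and neither marked motif. A match is a description of letters and not a measured binding site.

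Among the secondary and tertiary granule genes, Camp, which encodes a cathelicidin antimicrobial peptide, read 14.13, 14.07 and 12.73. Ngp, a neutrophil granule protein, read 13.88, 13.83 and 12.52, and Chil3, a chitinase-like lectin, 13.64, 13.66 and 12.34. In each of the 3 genes, WT replicate 3 was lower than both other arrays by more than 1 log2 unit. Ltf, the iron-binding lactoferrin, read 13.62, 13.34 and 10.05, so its mean of 12.34 ± 1.98 (SD, n = 3) stands for no single array. Lcn2, the siderophore-binding lipocalin, read 13.24, 12.92 and 10.69. Mmp9 and Mmp8, matrix-degrading proteases of the tertiary and secondary granules, read 12.83, 12.53 and 10.42 and 11.87, 11.26 and 8.57. Over the list, 12 of 15 members were lowest in WT replicate 3 and 0 highest there. The exceptions included Hp, haptoglobin (13.14, 12.85 and 12.87), and Olfm4, a glycoprotein of a neutrophil subset (10.81, 11.17 and 10.96). In every array all 15 exceeded background, and 9 were high in every array. Without replicate 3 the count of high members was 14, as with it.

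Late neutrophil genes spanned the whole range of levels. S100a9 and S100a8, the paired calcium-binding proteins that make up calprotectin, read 14.46, 14.63 and 13.82 and 14.17, 14.21 and 13.33. Both stood among the 25 brightest genes. Formyl peptide receptors differed widely: Fpr2 read 12.50, 12.49 and 9.13, and Fpr1 read 10.84, 10.45 and 7.20. Cxcr2, the receptor that calls neutrophils out of marrow, read 10.26, 9.94 and 8.12, and Csf3r, the receptor for the growth factor G-CSF, 10.05, 10.001 and 8.53. WT replicate 3 was the lowest array for 13 of the 15 measured members. Of the list, 5 were high, 9 middle and 1, the chemerin-binding receptor gene Ccrl2, at background. The interleukin genes of an activated neutrophil were middle, with means of 8.49 for the decoy receptor Il1r2 and 8.37 for Il1b.

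Monocyte genes were among the high genes, whereas 7 genes of resident macrophages were at background. Lyz2, lysozyme M, read 14.09, 14.12 and 12.56. Csf1r, the receptor for M-CSF that monocytes depend on, read 12.09, 12.88 and 10.60. Its other probe sets were middle, with means of 9.18 and 8.52. Ccr2, the chemokine receptor that moves monocytes out of marrow, read 11.23, 11.18 and 9.96. These genes again read lowest in WT replicate 3, as did 17 of the 25 measured members. Of the 25, 7 were high, 11 middle and 7 at background. The background members were the complement genes C1qa, C1qb and C1qc (5.73, 5.88 and 5.19), the mannose receptor Mrc1 (5.69), the phagocytic receptors Mertk (6.26) and Timd4 (5.15) and the scavenger receptor Marco (6.96). Adgre1, the F4/80 antigen, was middle at 9.29, 9.20 and 9.04. Vcam1, an adhesion molecule of marrow macrophages and stroma, and the haemoglobin scavenger receptor Cd163 were also middle, with means of 9.05 and 9.29.

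Markers of other cell types were seldom high. Dendritic cell genes had 0 of 11 high, 7 middle and 4 at background, so that 63.6% were above background beside 58.1% of all genes, with the interferon-induced tetherin gene Bst2 the highest (8.55, 8.50 and 9.32), the plasmacytoid receptor Siglech and the factor Zbtb46 middle (means of 7.98 and 7.07) and Xcr1 and Ccr7 at background. Of 14 eosinophil, basophil and mast cell genes, 0 were high, 3 middle and 11 at background, and 6 were above background without WT replicate 1. Hdc, the enzyme that makes histamine, read 9.41, 9.51 and 8.31, and the basophil protease Mcpt8 read 8.37, 7.69 and 8.21. Prg2, the eosinophil major basic protein, read 6.10, 6.74 and 10.36. Its relative Prg3, which is not among the 14 counted genes, read 6.73, 6.07 and 9.68. Both were at background in WT replicates 1 and 2 and well above it in replicate 3, and Prg2 read 7.22 to 9.08 over the Ezh2-null arrays and 9.76 to 10.89 over the Eed-null arrays. The eosinophil peroxidase gene Epx read 6.30, 6.51 and 7.13, and the eosinophil receptor genes Ccr3 (4.13) and Il5ra (4.78) had means at background. Without replicate 3 the list had 2 members above background in place of 3.

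The 6 lists of non-myeloid lineages, stroma and endothelium counted in, together held 102 measured genes, of which 33 (32.4%) were above background, 32 of them middle and 1 high. That share was like the 32.4% of the genes of other tissues and lay below the 58.1% of all genes. By list, 5 of 15 erythroid, 9 of 16 megakaryocyte, 7 of 18 B cell, 9 of 20 T cell and 1 of 13 NK cell genes exceeded the bound, as did 2 of 20 stromal and endothelial genes. Without WT replicate 2 the erythroid count was 3, and without WT replicate 1 the stromal and endothelial count was 4. Several defining markers were at background: the haemoglobin gene Hba-a1 had a mean of 5.86, the T cell CD3 chain Cd3e 6.30, the NK receptor Ncr1 4.55, the endothelial cadherin Cdh5 5.29 and the platelet factor Pf4 6.27. Others lay above the bound, with means of 7.98 for the platelet glycoprotein Gp9, 7.65 and 7.55 for the B cell factors Pax5 and Ebf1, 7.55 for the collagen gene Col1a1, 7.17 for the platelet integrin Itga2b, 7.15 for the T cell factor Bcl11b and 7.04 for the erythroid factor Klf1. With the stricter bound of 8.05, the 95th percentile of the genes of other tissues, 6 of the 102 remained: Nfe2, Itgb3, Cd247, Foxp3, Pdgfrb and Cd79b.

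Nfe2, a factor of megakaryocytes that myeloid cells also use, was high at 10.92, 10.65 and 10.37. Itgb3, the platelet fibrinogen receptor chain, read 10.89, 10.04 and 10.50 on its brighter probe set and had a mean of 7.66 on the other. Cd247, the signalling chain zeta of the T cell receptor, read 9.999, 9.725 and 9.630, with 2 of its 4 probe sets above background. Foxp3, the regulatory T cell factor, rests on a single probe set at 8.78, 8.70 and 9.09, whereas Cd3e, Cd3g and Cd4 (means of 6.30, 5.80 and 6.94) were at background. Pdgfrb, a growth factor receptor of stroma, read 8.32, 8.72 and 9.34, with its other probe set at 5.08. Cd79b, a signalling chain of the B cell receptor, rests on 1 probe set at 8.09, 7.98 and 8.20. The spans of these genes over the arrays ran to at most 1.01 log2 units.

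**Figure D2:**
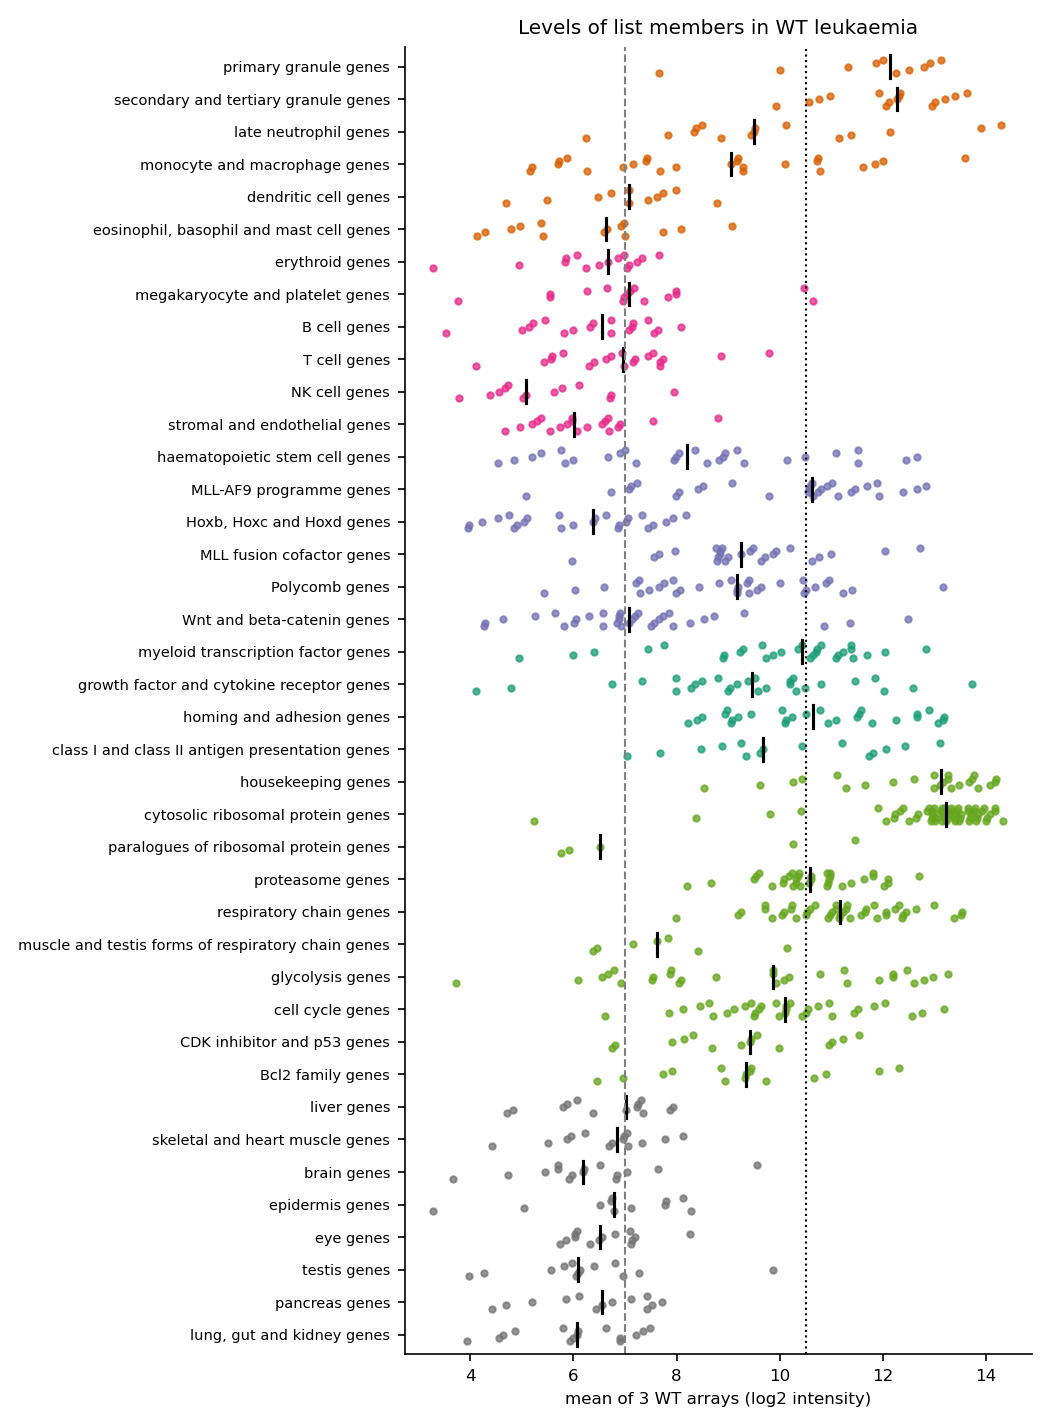
Mean level over the 3 WT arrays (horizontal axis, log2 intensity) of each measured member of 40 gene lists (rows), with a black tick at each list's median. Orange marks myeloid lists, pink other lineages, purple self-renewal, teal regulators and surface genes, light green housekeeping functions and grey other tissues; the dashed line at 7.01 is the background bound and the dotted line at 10.50 the top 10% bound. Granule and ribosomal protein lists lie mostly right of the dotted line, and the medians of the erythroid, megakaryocyte, B cell and T cell lists lie near the dashed line, with those of NK cell (5.07) and of stromal and endothelial genes (6.02) farther below it.

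Of 29 measured MLL-AF9 programme genes 18 were high by their mean, 9 middle and 2, the homeobox genes Six4 and Hoxa11, at background. The high count depended on the rule: 11 were high in every array, 13 when all probe sets of a gene were averaged and 8 with the top 5% as the bound. The list was written from general knowledge of this leukaemia, but with earlier results of these data known. Its counts are thus a description and no independent evidence for the programme. By definition 10% of all genes are high. Hoxa9, the homeobox factor central to this disease, read 11.94, 11.66 and 12.06 in WT replicates 1, 2 and 3. Meis1, its DNA-binding partner, read 11.41, 10.74 and 10.90. Myb, a factor that MLL-AF9 leukaemia needs to grow, read 12.76, 12.71 and 13.05. Their values spanned 0.39, 0.67 and 0.34 log2 units over the arrays. Replicate 3 was the highest for Hoxa9 and Myb and lay between the others for Meis1. The other probe sets of Meis1 (means of 9.37 and 8.88) and of Hoxa9 (10.45) were middle, while those of Myb were high.

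Within the Hoxa cluster, classes differed between members. Hoxa3 (11.17, 11.72 and 11.49), Hoxa5 (11.03, 10.25 and 10.96) and Hoxa10 (10.65, 10.22 and 10.88) were high like Hoxa9. Hoxa7 was middle at 8.94, 8.99 and 9.31, Hoxa4 was just above the bound with a mean of 7.24, and Hoxa11 read 7.01, 6.33 and 6.84. Hoxa10 had a further probe set at 4.76, so its class rests on the brighter of 2. The further probe sets of Hoxa3 and Hoxa5 were middle, with means of 9.36 and 9.29. Other genes of the programme were high as well: the factor Mef2c (11.98, 11.75 and 11.35), the kinase gene Cdk6 (12.62, 12.13 and 12.43), the apoptosis inhibitor Bcl2 (12.00, 11.37 and 12.44) and the phosphatase and coactivator Eya1 (10.82, 11.09 and 10.50). All probe sets of Mef2c and Cdk6 were high by their means. The other probe sets of Bcl2 (7.43 to 9.08) and of Eya1 (10.16 and 9.31) were middle. Pbx3, another Hoxa9 partner, differed most, at 7.06, 8.13 and 10.04, with its other probe set at 6.90. Flt3, a receptor kinase often mutated in human leukaemia, was middle at 8.29, 7.99 and 7.71. Without replicate 3, 15 programme genes were high and 27 above background.

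The Hoxb, Hoxc and Hoxd clusters were near or at background. Of 25 measured genes 0 were high, 8 middle and 17 at background. The 32.0% above background was below the 58.1% of all genes and like the 32.4% of the genes of other tissues. Hoxb4, known for expanding stem cells when forced on, was the highest at 8.86, 7.53 and 8.15, followed by Hoxc9 (7.78, 8.16 and 7.87). With the bound of 8.05 only Hoxb4 stayed above it. The lowest were Hoxc8 and Hoxd1, with means of 3.95 and 3.97.

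Of 28 stem cell genes 5 (17.9%) were high, 13 middle and 10 at background. The 64.3% above background is near the 58.1% of all genes, so the list as a whole did not stand out by that share. Lmo2, an adaptor of blood transcription complexes, read 12.85, 12.40 and 12.72. Mycn, of the Myc family, read 12.82, 12.33 and 12.17, and Erg, an ETS factor needed by stem cells, 11.61, 11.21 and 11.74. These stayed high in every array, but Mycn had other probe sets with means of 8.62 and 5.22 and Erg another with 10.30. Some genes used to mark long-term stem cells by surface or reporter were at background, with means of 6.68 for Procr, 6.00 for Slamf1, 5.75 for Hoxb5 and 4.54 for Fgd5. Other stem cell genes, among them Kit, Ly6a and Mecom, were middle by their means. Kit, the stem cell factor receptor that marks MLL-AF9 leukaemia stem cells in mice, was middle and even, at 8.24, 8.36 and 8.47. Cd34, a progenitor sialomucin, read 8.69, 7.60 and 9.49, and Ly6a, the Sca-1 antigen, 9.30, 9.27 and 8.22. Prom1, the CD133 antigen, read 10.64, 10.64 and 9.14. Mecom, the zinc finger factor EVI1 of stem cells and of a subset of MLL leukaemia, read 10.19, 10.26 and 6.01 and was at background only in replicate 3. In the other groups Mecom read 8.39 to 10.72 over the Ezh2-null arrays and 9.86 to 10.78 over the Eed-null arrays, all above background.

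**Figure D3:**
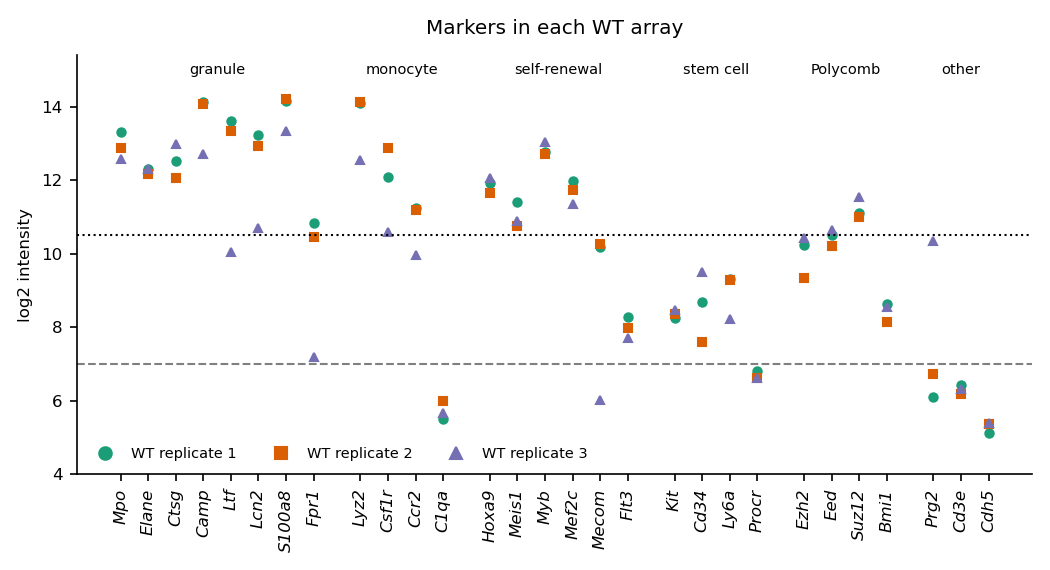
Log2 intensity (vertical axis) of marker genes (horizontal axis, grouped by role) in WT replicates 1 (circle), 2 (square) and 3 (triangle), with the background bound at 7.01 (dashed) and the top 10% bound at 10.50 (dotted). Ltf, Lcn2, Fpr1 and Mecom read lowest in replicate 3 and Prg2 highest there, while Elane, Hoxa9, Myb and Kit lie close together in all 3 arrays.

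The cofactors of MLL fusions were nearly all above background, with 5 of 25 high, 19 middle and 1, the elongation factor gene Ell2, at background. Paf1 and Cdk9, of the elongation machinery, read 12.05, 11.96 and 12.10 and 11.12, 10.98 and 10.89. Middle levels were found for the H3K79 methyltransferase Dot1l (8.81, 8.79 and 8.95), menin Men1 (8.41, 9.29 and 8.58) and the partners of the fusion themselves, Kmt2a (9.30, 8.82 and 9.65) and Mllt3 (8.82, 8.88 and 8.65). The level of Mllt3 rests on 1 of its 4 probe sets, the others having means of 6.56, 4.99 and 4.25. Kmt2a and Mllt3 are the mouse genes, and whether their probe sets also read the retroviral fusion was not tested.

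Of 33 Polycomb genes 7 (21.2%) were high, 23 middle and 3 at background, so that 90.9% were above it. Of all genes 10% were high and 58.1% above background. With the bound of 8.05, 22 Polycomb genes and 40.0% of all genes stayed above it. The histone chaperones Rbbp4 and Rbbp7, shared with other complexes, read 13.09, 13.17 and 13.27 and 11.16, 11.22 and 11.80. Suz12, the PRC2 core subunit, was high at 11.12, 10.99 and 11.54, and Eed was just under the bound of the top 10%, with a mean of 10.46. Ezh1, the alternative catalytic subunit, was middle with a mean of 9.41, as was Ezh2 with 10.01. Bmi1, the PRC1 subunit that restrains Cdkn2a, was middle at 8.62, 8.15 and 8.54. Cdkn2a, the Ink4a/Arf locus of cell cycle inhibitors, read 6.50, 6.96 and 6.80 and was at background in all 3 arrays. Epop, Pcgf6 and Cbx2 were the Polycomb genes at background (5.43, 6.02 and 6.60). Of the Polycomb genes, 20 of 33 read highest in replicate 3, given without the same share over all genes.

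The Wnt pathway genes that were high encode proteins inside the cell. Ctnnb1, beta-catenin, read 12.44, 12.49 and 12.56, with its other probe sets middle at means of 10.02 and 8.93. The kinases of the destruction complex of beta-catenin, Csnk1a1 and Gsk3b, had means of 11.36 and 10.86. The scaffold Apc was middle (9.48, 8.86 and 9.61). The ligands Wnt1, Wnt3 and Wnt5a and the enhancers Rspo1, Rspo2 and Rspo3 were at background, with means from 4.26 for Wnt1 to 6.90 for Rspo2, while Wnt4 and Wnt3a were middle at 7.74 and 7.66. The nuclear partners Lef1 and Tcf7 and the target Axin2 lay just above the bound, at means of 7.24, 7.20 and 7.14. In all, 3 of 33 (9.09%) were high, 14 middle and 16 at background, so that 51.5% were above background. These shares are near the 10% and 58.1% of all genes.

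Transcription factors of the granulocyte and monocyte lineage were often high. Of 29 measured, 14 were high, 12 middle and 3 at background, and 20 were high with the top 20% as the bound. Gfi1, a repressor needed for neutrophil formation, read 11.91, 11.96 and 12.26. Spi1, which encodes PU.1, read 10.57, 11.01 and 10.33, and Cebpa, the factor that starts granulocyte formation, 10.55, 9.74 and 11.01. Irf8, which directs monocyte fate, read 10.60, 10.05 and 10.42. Myc, a driver of growth, read 10.27, 9.59 and 11.84 and was highest in replicate 3. The erythroid factor Gata1 was at background (4.56, 5.35 and 4.96), as were Egr2 and, on its single probe set, Junb. Gata2, a factor of progenitors and mast cells, read 8.55, 8.19 and 9.95.

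Of 28 growth factor and cytokine receptors 6 (21.4%) were high, 19 middle and 3 at background. The 89.3% above background stands beside 58.1% of all genes. The highest were Il17ra (13.78, 13.94 and 13.45), Csf2ra, the GM-CSF receptor alpha chain (12.80, 12.83 and 12.16), and the interferon receptor chain Ifnar2 (12.16, 12.15 and 11.79). Il3ra, the interleukin-3 receptor chain, was middle with a mean of 8.29, and the lymphoid and eosinophil receptors Il7r and Il5ra were at background. Homing and adhesion genes were all above background, 15 of 28 high and 13 middle. Cxcr4, which holds cells in marrow, read 13.13, 13.28 and 13.15, and Cd47, the signal against phagocytosis, had a mean of 12.66. Cxcr4 and the sialomucin Spn (12.83, 12.96 and 12.91) differed little between arrays.

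Genes of cytosolic ribosomal proteins and of the respiratory chain were mostly high, whereas most glycolysis genes were not. Of 24 measured common housekeeping genes 20 were high and 4 middle, with a median of 13.13. A wider pool of lists had 153 high, 88 middle and 17 background genes of 258. It also held cell cycle, CDK inhibitor, p53 and Bcl2 family genes and tissue-restricted forms. Of 61 measured cytosolic ribosomal protein genes 57 were high, 3 middle and 1 at background, and their median was 13.22. Rpl23, the brightest, read 14.25, 14.29 and 14.49. The background gene was Rps16, whose only probe set with a single symbol read 5.20, 5.29 and 5.23. Tissue-restricted paralogues were dim: Rpl3l, Rpl39l and Rps4l were at background with means of 5.76, 5.91 and 6.52, whereas Rps27l was high (11.11, 11.21 and 12.08) and Rpl22l1 middle. WT replicate 3 was the highest array for 59 of the 61 ribosomal protein genes.

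The proteasome had 18 of 34 genes high and 16 middle, led by Psma6 (12.68, 12.65 and 12.81). Psmb8 and Psmb9, catalytic subunits of the immunoproteasome, were high, with means of 11.81 and 11.22. The respiratory chain had 31 of 43 high and 12 middle, led by Ndufb7 of complex I (13.49, 13.68 and 13.45) and Atp5a1 of the ATP synthase (13.45, 13.49 and 13.63). Muscle and testis forms of these subunits had 0 of 7 high, 5 middle and 2 at background. Cox6b2 was the brightest of them at 9.39, 10.18 and 10.83. In glycolysis 11 of 29 were high, 12 middle and 6 at background, so that 79.3% were above background beside 58.1% of all genes. The ubiquitous Gpi1 (13.47, 13.18 and 13.16), Aldoa, Pgk1, Pkm and Ldha were high, and so was Hk3, the hexokinase of myeloid cells, with a mean of 11.93. The liver transporter Slc2a2, the neuronal enolase Eno2, the muscle and fat transporter Slc2a4 and the sperm enzymes Pgk2 and Gapdhs were at background. Testis Ldhc and muscle Pgam2, Eno3 and Pfkm were middle, with means of 7.55 to 8.04. The glucose transporter Slc2a3 read 12.18, 12.04 and 9.53.

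**Figure D4:**
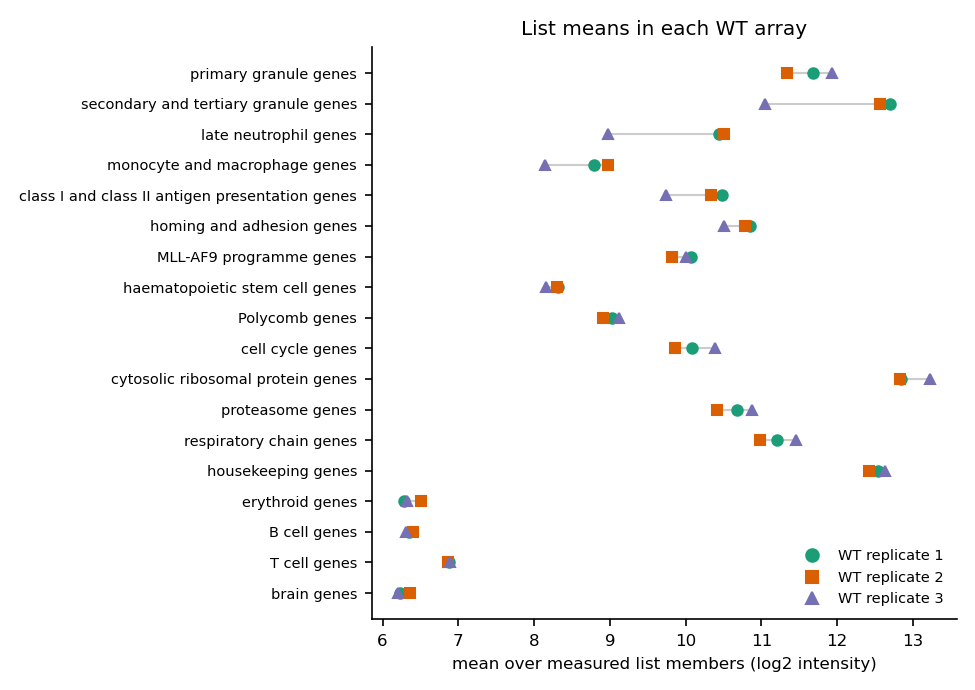
Mean level over the measured members of 18 gene lists (horizontal axis, log2 intensity) in WT replicates 1 (circle), 2 (square) and 3 (triangle), joined by a grey line. Replicate 3 lies lowest for secondary and tertiary granule, late neutrophil and monocyte genes and highest for ribosomal protein, proteasome and cell cycle genes. Replicate 2 lies lowest for proteasome, respiratory chain and cell cycle genes.

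Cell cycle genes were nearly all above background, with 12 of 33 high, 20 middle and 1, Ccne2, at background. The proliferation marker Mki67 read 13.10, 13.28 and 13.20, and the replication clamp Pcna 12.73, 12.75 and 12.82. Of the D cyclins, Ccnd3 was high with a mean of 10.75, Ccnd2 middle at 9.52, and Ccnd1 uneven at 8.87, 7.75 and 10.32. WT replicate 3 was highest for 24 of the 33. Among inhibitors, Cdkn2c, which encodes p18, read 11.89, 11.64 and 11.07, and Cdkn1b, which encodes p27, 11.52, 11.20 and 10.32, while Cdkn2a and Cdkn2b were at background. Trp53 was middle with a mean of 9.99, and its brakes Mdm4 and Mdm2 were high (11.23 and 10.95). Mcl1, the survival factor of myeloid cells, read 12.39, 12.53 and 12.01. Bcl2l1, the related inhibitor, was middle at 8.94, and the killer genes Bik and Hrk were at background.

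Antigen presentation differed by class. The class I genes B2m (13.22, 13.30 and 12.80), H2-D1 (12.70, 12.63 and 11.95) and H2-K1 (12.27, 12.00 and 11.93) were high in every array. Class II genes were middle by their means: H2-Ab1 read 11.24, 10.42 and 9.64, and Cd74, the invariant chain, 10.83, 9.83 and 7.40. Ciita, the master regulator of class II, was low in the middle class at 7.60, 7.95 and 7.51. None of the 15 measured genes had its mean at background, and 10 of 15 read lowest in replicate 3. Among sex-linked genes, Xist, the RNA of the inactive X chromosome, read 12.75, 12.90 and 12.93, and the Y-linked genes Kdm5d, Ddx3y, Eif2s3y and Uty had means of 6.40, 5.48, 4.27 and 4.12, all at background.

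The WT arrays placed most genes alike. With each array's own bounds, 17186 genes (83.6%) had the same class in all 3 arrays, 10469 (50.9%) exceeded background in every array and 1564 were high in every array. Of the high genes with several probe sets, 369 of 1528 (24.1%) had another probe set at background, as did 3017 of 5496 middle genes (54.9%). The median SD was 0.23 for high, 0.27 for middle and 0.17 for background genes. A span above 1 log2 unit was found for 2456 genes (11.9%), above 2 for 348 and above 3 for 74. Only 3 genes were high in 1 array and at background in another: Abhd14a (8.07, 6.82 and 10.63), the G protein-coupled receptor kinase gene Grk3 (10.10, 11.06 and 6.41) and Slfn1 of the schlafen family (10.76, 10.76 and 7.05).

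List means differed between the arrays. Secondary and tertiary granule genes averaged 12.70, 12.56 and 11.04 in WT replicates 1, 2 and 3, late neutrophil genes 10.44, 10.50 and 8.97, and monocyte and macrophage genes 8.80, 8.97 and 8.14. In contrast, ribosomal protein genes averaged 12.84, 12.82 and 13.23 and cell cycle genes 10.08, 9.86 and 10.38. Replicate 2 also differed, with proteasome genes averaging 10.67, 10.41 and 10.87, and it was the lowest array for 28 of 34 proteasome, 31 of 43 respiratory chain and 21 of 33 cell cycle genes. Primary granule genes (11.68, 11.34 and 11.93) and the MLL-AF9 programme (10.07, 9.81 and 10.01) did not read lowest in replicate 3. Erythroid (6.29, 6.51 and 6.33), B cell (6.35, 6.41 and 6.31) and T cell genes (6.88, 6.86 and 6.89) were almost level. The array medians, at 7.42, 7.46 and 7.43, were nearly equal, but RMA evens out the distributions of arrays. They thus cannot show whether a whole array was shifted. What moved the lists was not tested.

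Replicate 3 was the lowest or highest array for each of the 15 widest spans. It was not always the one farthest from the middle value, which was replicate 1 for C79798 (4.56, 7.45 and 9.24) and replicate 2 for Coprs (9.30, 7.05 and 11.16). Orm1, an acute phase glycoprotein stored in neutrophil granules, had the widest at 4.74 log2 units, with 9.58, 10.19 and 5.45. Ceacam10, of the carcinoembryonic antigen family, read 9.58, 9.81 and 5.69. In both genes all 7 null arrays lay above background, at 7.54 to 9.94 for Orm1 and 9.04 to 11.17 for Ceacam10. Mylk, myosin light chain kinase, read 8.11, 6.02 and 10.41, with replicate 2 at background. Rhoj, a small GTPase, read 6.17, 5.49 and 9.55, and among the null arrays 1, Eed-null replicate 2, exceeded the WT bound, at 7.83. P2ry14, a receptor for UDP-sugars, read 8.86, 7.60 and 4.97.

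**Figure D5:**
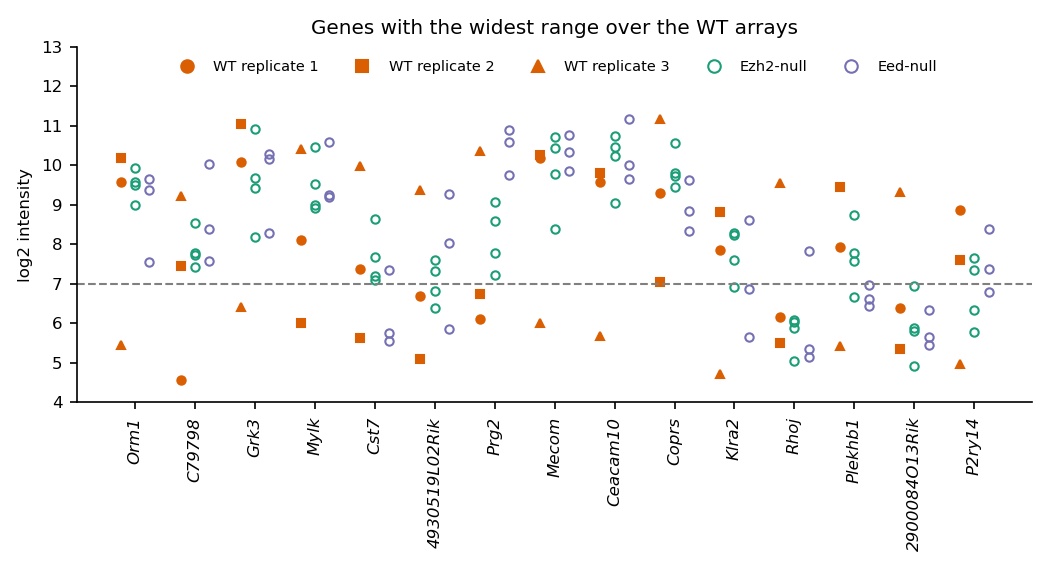
Log2 intensity (vertical axis) of the 15 genes above background with the widest span over the WT arrays (horizontal axis, widest on the left), with WT replicates as filled orange symbols, Ezh2-null arrays as open green and Eed-null arrays as open purple circles, and the background bound at 7.01 (dashed). WT replicate 3 (triangle) is the lowest or highest WT array for each gene.

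Promoter composition differed between the level classes. Of the 20564 genes, 11634 had a single listed start in the RefSeq table, and the 250 bases before it were read on both strands. The ratio of observed to expected CG dinucleotides had a median of 0.80 for high, 0.72 for middle and 0.40 for background genes. TATAAA was found in 7.51% of high, 6.38% of middle and 13.6% of background promoters and in 9.32% of all. GAGGAA was spread evenly, at 23.4%, 22.5% and 22.2%, and 22.5% of all. The ETS core CCGGAAG, typical of CpG-rich promoters, occurred in 17.2% of high, 14.5% of middle and 4.73% of background promoters.

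The granule and ribosomal programmes, both mostly high, differed in these letters. Granule and late neutrophil genes, 35 with sequence, had a median CG ratio of 0.16, and 22 (62.9%) held GAGGAA, 9 (25.7%) TATAAA and 0 held CCGGAAG. On either strand and at any place in the 250 bases, TATAAA was held by 7 of 14 late neutrophil and 1 of 8 primary granule promoters. The latter was the Ctsg match far upstream, so these are counts of letters and not of TATA boxes. TTGCNNAA, a pattern bound by C/EBP factors, was held by 6 of the 35 (17.1%) and by 8.05% of all promoters. Ribosomal protein genes, 39 with sequence, had a ratio of 0.85, and 5 (12.8%) held GAGGAA and 14 (35.9%) CCGGAAG, which 11.0% of all promoters held. A low CG ratio was also found in other lists: T cell genes had 0.24, B cell genes 0.20 and liver genes 0.20. GAGGAA was also common in some other lists, including those of tissues not sampled. It was held by 6 of 11 T cell, 6 of 12 megakaryocyte, 6 of 12 lung, gut and kidney and 5 of 12 eye promoters. By contrast, 2 of 12 B cell and 1 of 9 NK cell promoters held it. The other motifs were more frequent in some other lists, TTGCNNAA in 4 of 9 liver and 3 of 11 T cell promoters and TATAAA in 4 of 7 epidermis and 5 of 12 pancreas promoters.

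The classes were much the same in the rest of the series. With bounds set within each group, 92.1% of WT high genes, 92.2% of middle and 97.9% of background genes kept their class in Ezh2-null leukaemia, and 88.4%, 88.6% and 97.5% did in Eed-null leukaemia. Across the whole table, 1 gene moved between the extremes: Dmrt3, a developmental transcription factor gene, was at background in WT (6.22, 6.76 and 6.85) and high in Eed-null arrays (11.74, 10.24 and 10.13). The secondary and tertiary granule genes averaged 12.70, 12.56 and 11.04 in WT replicates 1, 2 and 3, against group means of 12.75 in Ezh2-null and 12.70 in Eed-null leukaemia. The MLL-AF9 programme averaged 10.07, 9.81 and 10.01 in WT, against 10.01 in Ezh2-null and 10.08 in Eed-null leukaemia. These are descriptions of groups, and their differences were not tested here.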

How the data were processed

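RNA of sorted leukaemic marrow was extracted with Trizol, amplified and labelled with biotin, per the labels' protocols, and hybridised to expression arrays. The deposited value table held linear intensity values of 45101 probe sets, which the authors had made with the RMA method, per the submitters' processing notes (the version of RMA is not given in the sources used here). Amplification and RMA can compress differences of dim and bright probe sets. The log2 was taken after a floor of 1, below which 0 values lay. A second deposited table of intensity values carried a ComBat batch adjustment, per the file header. It supplied the symbols and, through its WT columns (14 values set to the floor), an alternative, and 9 columns of another series were not used.

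Control probe sets (64) and those with no symbol (5820), several symbols (1399) or a date in place of a symbol (56) were not used. Of the 37762 kept, 31088 had a current symbol, 3656 were updated through the reference table of GRCm38.p6 and 3018 stayed as given. For the 9541 genes with several probe sets, the highest WT mean was kept. The 41 gene lists hold 854 different genes, of which 806 were measured. Members and lists were chosen with earlier results of these data known. Named by rule were the 25 brightest genes, the 4 highest, 2 lowest and most variable members of each list, the 15 most variable genes above background, the genes at the bounds, the sex-linked genes and 12 set markers. Other members were named after their values were seen, and a few members are not reported here. The 250-base window, the limit to genes with 1 listed start, CCGGAAG, TTGCNNAA and the promoters shown were also chosen after values were seen. No test between groups was run, since the question was one of levels. The assignment of genes to classes was tested on simulated levels with known changes. Python 3.11.15, pandas 2.3.3 and numpy 2.4.6 were used. Alternatives were other bounds, probe set rules, quantile normalization, the ComBat table, symbols as given and leaving out each WT array.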

Additional observations from a re-analysis of the deposited data

How the results depend on the processing

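Among the whole-table counts, genes above background in WT numbered 11947 and ranged from 8223 to 12301 over the alternatives, with 11405 to 12301 when 1 WT array was left out. The count of high genes follows its definition, at 2057 with the top 10%, 1029 with the top 5% and 4113 with the top 20%. The MLL-AF9 programme genes above background numbered 27, and 25 to 27 without single arrays. Genes of other lineages depended most on the bound, with 33 above background, 27 to 38 without single arrays, 20 when each array had to exceed its own bound, 9 with the 99th percentile of the receptor genes and 6 with the bound from other tissues. Of 984 counts of list members under an alternative, 888 lay within 1.5 times the value reported and 96 did not, while all 82 lay within it without WT replicate 3. Without WT replicate 1, members above background were 6 in place of 3 for eosinophil, basophil and mast cell genes, 4 in place of 2 for stromal and endothelial genes and for testis genes, and 5 in place of 3 for lung, gut and kidney genes, and 1 muscle or testis respiratory chain form was high in place of 0. Without WT replicate 2 they were 3 in place of 5 for erythroid genes and 2 in place of 5 for muscle genes and for eye genes, and 2 platelet genes were high in place of 1. Of the means of 307 named genes, 121 moved by more than 1 SD when all probe sets of a gene were averaged and 107 in the ComBat table, and the cause was not tested. Leaving out 1 of 3 arrays cannot move a mean by 1 SD, so that measure says nothing about single arrays. The MLL-AF9 programme genes called high numbered 18, and 8 to 19 over the alternatives, 11 of them high in every array. The list of secondary and tertiary granule genes had 14 high members, and 11 with the ComBat table. No paired analysis was possible because the levels of 1 group are described and the labels tie no array to a donor or colony. Levels near the bound cannot be told from unspecific signal, and 3 arrays allow no firm estimate of spread.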
